A study of Mus musculus with 4 samples.

Results

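The ERK feedback genes are a set of 10 genes whose transcription follows signaling through the kinases ERK1 and ERK2, and most of whose products restrain that signaling or carry it into the nucleus. They were taken by gene name and comprised the phosphatase genes Dusp4, Dusp5 and Dusp6, the membrane inhibitor genes Spry1, Spry2, Spry4 and Spred1, the transcription factor genes Etv4 and Etv5, and Phlda1. All probes carrying these names on the array were taken, which gave 13 probes of 55681 and 10 genes of 34816. All 10 genes and all 13 probes were well above background on each of the 4 arrays, as were 19540 of all genes. Etv4 had more than 1 probe, as had Spred1, and the other 8 genes had 1 probe each.

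Growth factors bind receptor tyrosine kinases at the cell surface, and the signal passes through RAS, RAF and MEK to ERK, which phosphorylates targets in the cytoplasm and the nucleus. The transcripts of the genes listed above respond within hours to the activity of ERK and are widely used as a readout of it. The Dusp, Sprouty and Spred proteins in turn dampen the cascade at several levels. The kinase AKT lies on a parallel branch downstream of many of the same receptors. In fibroblasts, ERK signaling accompanies growth factor stimulation, and in mouse pluripotent stem cells it favors exit from self-renewal.

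The study examined mouse embryonic fibroblasts on the way to induced pluripotent stem cells and asked what activated AKT changes in them. The cells were male, had been pooled from several mid-gestation embryos and held an EGFP reporter transgene under the Oct4 promoter. All groups were infected with retroviruses for Oct4, Sox2 and Klf4 (OSK), and the remaining groups received AKT-MER in addition (OSKA). AKT-MER is a myristoylated AKT fused to a modified estrogen receptor, so that the protein is switched on by the ligand 4-hydroxytamoxifen (4OHT). Either 4OHT or vehicle was given from 3 days postinfection (dpi), and RNA was taken at 8 dpi. This gave 1 array for each of 4 groups, namely OSK and OSKA cells, each without and with 4OHT, the OSKA cells with 4OHT being the AKT-activated cells. The OSKA array with 4OHT carries a description that speaks of AKT-MER without activation, and its title, which names 4OHT, was followed. There were no replicates, so no difference given here has a test or a replicate check. These were bulk samples, in which fewer cells of a type and less RNA per cell cannot be told apart.

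Levels below are on a log2 scale on which 0 is the 75th percentile of intensity of the same array, a value of 377 to 462. Between 52.4% and 55.4% of spots were well above background. As a check of the labels, the Esr1 probe that reads the estrogen receptor part of the transgene lay at 3.11 and 3.32 on the OSKA arrays without and with 4OHT and was not well above background on the OSK arrays. Relative to the matching OSK array this was at least 219-fold more without 4OHT, and the bound with 4OHT was at least 233-fold. All 8 fibroblast markers were well above background on every array, and their summed linear level was 1196 to 1372 times the 75th percentile. Of 7 pluripotency markers 5 were well above background, with Zfp42 and Esrrb below it on every array, and the summed level was 3.42 to 4.91. All 4 haematopoietic markers were measured on each array, with a summed level of 70.1 and 95.2 in OSK cells and of 93.1 and 84.3 in OSKA cells, without and with 4OHT in each case. The epithelial list summed to 2.47 to 4.39 with Cldn4 below background in OSK cells without 4OHT, and the endothelial list to 8.02 to 11.9 with Cdh5 below background throughout. The part of these other cell types in the differences below was not tested. The 4 arrays shared 1 slide, and slide position and group cannot be told apart.

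Upstream sequences from RefSeq (GRCm38.p6) were read for 6 of the 10 genes, in 7 windows of 250 bases that end at the base before the annotated start. No window was read for Dusp4, Spry4, Etv4 and Phlda1. Each window was searched on both strands for the CArG box bound by serum response factor, the ETS core CCGGAA, the AP-1 element TGANTCA, the FOXO element GTAAACA and the CRE core TGACGT, a choice made after the sequences had been seen. Matches were found in 1 Dusp5 window and 1 Etv5 window, which are printed because serum response factor and CREB relay growth factor signals and FOXO proteins are substrates of AKT. In the Dusp5 window (chr19:53528895-53529144, plus strand) the capitals mark 2 adjoining CArG boxes, ending 72 and 62 bases short of the start, and 1 CRE core on the opposite strand. In the Etv5 window (chr16:22439571-22439820, minus strand) the capitals mark 1 FOXO element.
Dusp5: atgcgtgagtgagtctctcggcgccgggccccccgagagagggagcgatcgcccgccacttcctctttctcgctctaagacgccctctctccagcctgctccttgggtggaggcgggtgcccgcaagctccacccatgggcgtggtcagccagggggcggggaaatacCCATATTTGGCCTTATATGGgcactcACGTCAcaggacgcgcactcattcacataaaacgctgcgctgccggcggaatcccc
Etv5: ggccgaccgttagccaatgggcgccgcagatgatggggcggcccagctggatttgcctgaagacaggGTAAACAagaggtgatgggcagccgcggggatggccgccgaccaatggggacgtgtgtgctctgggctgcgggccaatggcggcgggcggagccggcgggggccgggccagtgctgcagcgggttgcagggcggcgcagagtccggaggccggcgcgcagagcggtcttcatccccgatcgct
A CArG box was present in 1.47% of all 32851 windows in the table, a CRE core in 6.47%, a FOXO element in 3.17%, an ETS core in 12.0% and an AP-1 element in 6.75%. These are letter matches only, and no binding was measured.

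Across the set, 9 of the 10 genes had their lowest level in the AKT-activated cells, compared with 37.5% of all genes measured on the 4 arrays. The remaining gene, Spry4, was lowest in OSKA cells without 4OHT. Spred1 is counted by its brightest probe, and its other probes were lowest in OSK cells without 4OHT, so that with the mean of all probes the count was 8 of 10. The highest level fell on OSK cells without 4OHT for 5 genes (31.6% of all genes), on OSK cells with 4OHT for 4 genes (22.1%) and on OSKA cells without 4OHT for 1 gene, Spry1 (19.0%). This split depended on the scaling. With the spike-in probes as the scale, 9 of the 10 genes were lower with 4OHT in OSK cells. All 10 were then lower in OSKA than in OSK cells, both without and with 4OHT. The AKT-activated cells remained lowest for 9 genes on that scale, against 49.3% of all genes. None of the 10 was highest in the AKT-activated cells, where 27.3% of all genes were highest. The size of the step was uneven. Dusp4 spanned 1.51 on the log2 scale over the 4 arrays, while Spred1 spanned 0.30. The scanner software put the error of a difference between arrays at a median of 0.20 for these genes. That error covers the reading of a spot on 1 array and not the variation between cultures.

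**Figure D1:**
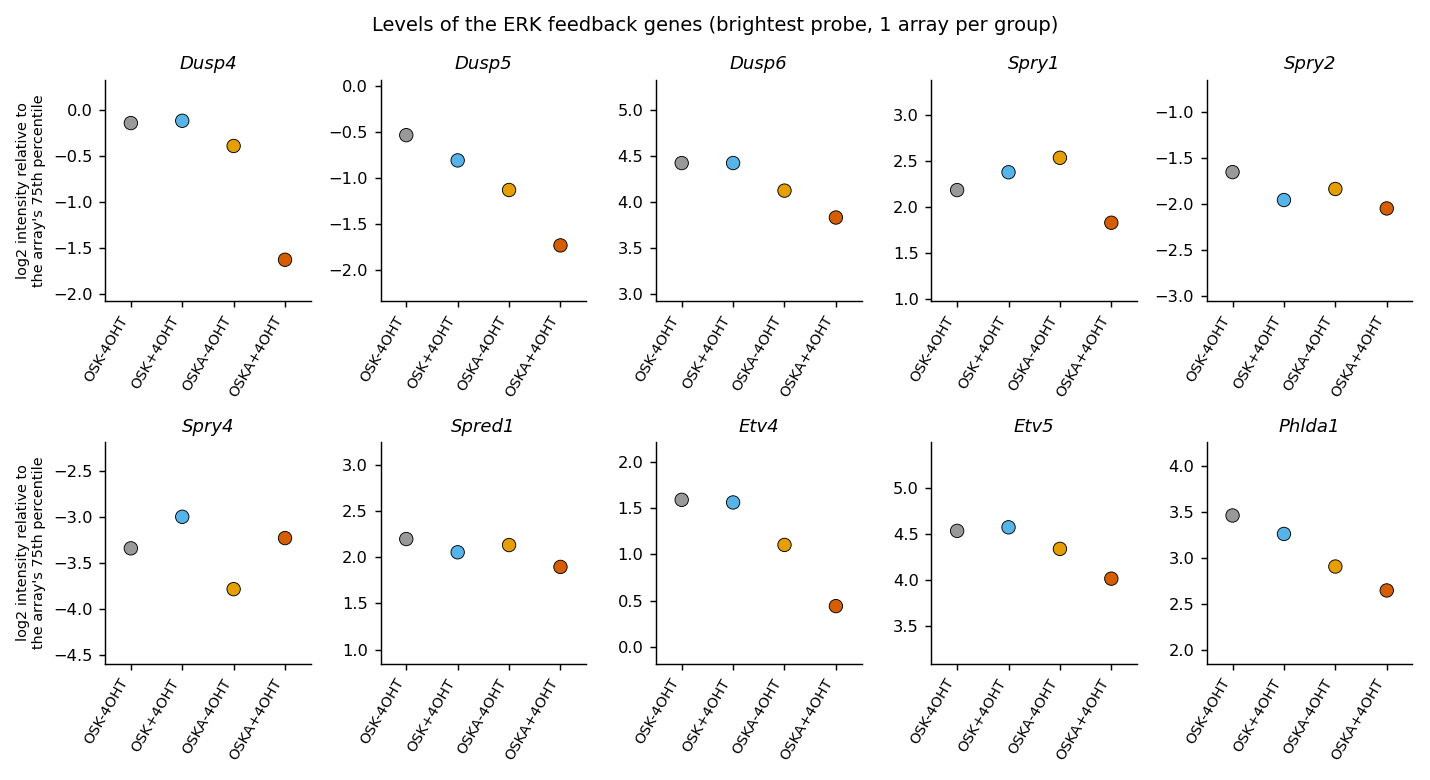
Level of each ERK feedback gene on each array, as log2 intensity with the 75th percentile of each array at 0 (vertical axis, the same span in every panel), for OSK and OSKA cells without and with 4OHT (horizontal axis). Each point is the brightest probe on 1 array, and levels are not comparable between genes. The AKT-activated cells hold the lowest point in 9 of the 10 panels, Spry4 being the exception.

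The dual-specificity phosphatases remove phosphate from both sites of the activation loop of ERK. Dusp4 and Dusp5 act in the nucleus, and Dusp6 acts in the cytoplasm with a strong preference for ERK. Dusp4 (probe at chr8:35882045-35882104, mm9) lay at −0.14 and −0.11 in OSK cells without and with 4OHT, at −0.39 in OSKA cells without it and at −1.62 in AKT-activated cells. Its intensities in the same order were 419, 348, 308 and 124. The AKT-activated array stood below the other 3, which lay nearer to each other. With 4OHT in OSKA cells Dusp4 was lower by 1.24 on the log2 scale (difference −1.24, software error 0.21), which is 0.425-fold, and 0.365% of all genes had a more negative difference. In OSK cells the difference with 4OHT was 0.02. OSKA cells differed from OSK cells by −0.25 without 4OHT and by −1.51 with 4OHT.

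Dusp5 (chr19:53615682-53615741) lay at −0.54 and −0.81 in OSK cells without and with 4OHT and at −1.13 and −1.73 in OSKA cells without and with 4OHT. Its intensities of 318, 215, 184 and 115 placed it in the dimmest tertile of genes. The 4 levels formed a descending series in that order, each step exceeding the software error. The difference with 4OHT was −0.27 in OSK and −0.60 in OSKA cells, and the difference of OSKA from OSK cells was −0.60 without and −0.92 with 4OHT. The step from OSK to OSKA cells without 4OHT was thus as large as the step with 4OHT in OSKA cells, unlike that of Dusp4.

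Dusp6 (chr10:98729985-98730044) lay at 4.42 in OSK cells both without and with 4OHT, at 4.12 in OSKA cells without 4OHT and at 3.83 in AKT-activated cells. The levels of the OSK arrays did not differ beyond the error, although they did by −0.31 with the spike-in probes as the scale, and each OSKA array was lower than the one before it by more than the error. The 4OHT difference was 0.00 in OSK and −0.29 in OSKA cells, and OSKA cells differed from OSK cells by −0.30 without and −0.59 with 4OHT. The last value is a level 0.664-fold that of OSK cells with 4OHT.

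Sprouty proteins are inducible inhibitors that interrupt the passage of the signal from receptor to RAS and RAF, and Spred proteins bring neurofibromin to the membrane to inactivate RAS. Spry1 (chr3:37543403-37543462) lay at 2.19 and 2.38 in OSK cells without and with 4OHT, at 2.54 in OSKA cells without 4OHT and at 1.83 in AKT-activated cells. It was the only one of the 10 genes with its highest level in OSKA cells without 4OHT, and also the one in which the OSKA arrays lay on either side of both OSK arrays. The 4OHT difference was 0.19 in OSK cells, within its error of 0.20, and −0.70 in OSKA cells, which is 0.613-fold. OSKA cells differed from OSK cells by 0.35 without 4OHT and by −0.55 with it. With the spike-in probes as the scale the first of these was −0.09 and the 4OHT difference in OSK cells −0.11.

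Spry2 (chr14:106291845-106291904) lay at −1.65 and −1.96 in OSK cells and at −1.84 and −2.05 in OSKA cells, without and with 4OHT in each case. The difference with 4OHT was −0.30 in OSK cells, with a software error of 0.22, and −0.21 in OSKA cells, within its error of 0.21. OSKA cells differed from OSK cells by −0.18 without and by −0.09 with 4OHT, both within the error, but by −0.63 and −0.22 with the spike-in probes as the scale, both beyond it.

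Spry4, on chromosome 18, lay at −3.34 and −3.00 in OSK cells and at −3.78 and −3.23 in OSKA cells, without and with 4OHT in each case. Both arrays with 4OHT were higher than their partners without it, by 0.34 (error 0.26) in OSK cells and by 0.55 (error 0.27) in OSKA cells. It was the only member above 0 in the 4OHT difference in OSKA cells. OSKA cells differed from OSK cells by −0.44 without 4OHT and by −0.23 with it. Spry4 lay near the lower end of the measured range, in the dimmest tertile of genes, where the differences of all genes between the OSKA arrays had an SD of 0.49 against 0.26 in the brightest tertile. Under background correction with normexp and quantile normalization its OSKA difference was 0.25 and its OSK difference 0.14. With the spike-in probes as the scale the OSK difference was 0.04. Both of these OSK values lay within the error of 0.26.

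Spred1 by its brightest probe (chr2:117005906-117005965) lay at 2.20 and 2.06 in OSK cells and at 2.13 and 1.90 in OSKA cells, without and with 4OHT in each case. The difference with 4OHT was −0.14 in OSK and −0.24 in OSKA cells, and OSKA cells differed from OSK cells by −0.07 without and −0.16 with 4OHT. With the spike-in probes as the scale the 4OHT difference in OSK cells was −0.45. OSKA cells without 4OHT then differed from OSK cells by −0.51. The other probes of Spred1 did not all point the same way. A dimmer probe at 0.75, 0.90, 0.99 and 0.93 on the 4 arrays in the same order gave −0.07 with 4OHT in OSKA cells and 0.03 between OSKA and OSK cells with 4OHT. The dimmest probe, at −2.99, −2.92, −2.54 and −2.76, gave −0.23 and 0.15 for these comparisons. With the mean of all probes Spred1 was above 0 in every comparison except the 4OHT difference in OSKA cells.

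Etv4 and Etv5 belong to the PEA3 group of ETS transcription factors, whose transcription is induced by ERK and which are relieved of repression by Capicua when ERK is active. Etv4 (chr11:101631057-101631116) lay at 1.59 and 1.56 in OSK cells without and with 4OHT, at 1.10 in OSKA cells without 4OHT and at 0.44 in AKT-activated cells. The OSK arrays did not differ beyond the error on this scale, and the OSKA arrays lay below them in steps that exceeded it. With 4OHT in OSKA cells Etv4 differed by −0.66, which is 0.631-fold, and in OSK cells by −0.03, or by −0.33 with the spike-in probes as the scale. OSKA cells differed from OSK cells by −0.49 without 4OHT and by −1.13 with it, and the last value is 0.458-fold. The other Etv4 probe, at −0.65, −0.96, −1.26 and −2.12, gave −0.30, −0.85, −0.61 and −1.16 for the 4OHT difference in OSK cells, that in OSKA cells, and the AKT-MER difference without and with 4OHT. Both probes thus gave the same order of OSKA arrays below OSK arrays, although they were unlike in OSK cells, where only the dimmer probe was lower with 4OHT by more than 0.20.

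Etv5 (chr16:22381387-22381446) lay at 4.53 and 4.57 in OSK cells without and with 4OHT and at 4.34 and 4.01 in OSKA cells without and with 4OHT. The 4OHT difference was 0.04 in OSK cells and −0.32 in OSKA cells. OSKA cells differed from OSK cells by −0.20 without 4OHT, which is within the error but was −0.64 with the spike-in probes as the scale, and by −0.56 with 4OHT, which is 0.679-fold. Its FOXO match, in the upstream window printed above, was not shared by the other Etv5 window or by the windows of the other genes.

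Phlda1 encodes a small protein with a pleckstrin homology-like domain that is induced by growth factors through ERK. Its probe (chr10:110945310-110945369) gave 3.46 and 3.26 in OSK cells without and with 4OHT and 2.91 and 2.65 in OSKA cells without and with 4OHT. Both OSKA arrays lay below both OSK arrays. The 4OHT difference was alike in both cell populations on this scale, at −0.20 in OSK and −0.26 in OSKA cells. With the spike-in probes as the scale it was −0.51 in OSK and −0.25 in OSKA cells. The AKT-MER difference was −0.55 without 4OHT and −0.61 with it, so that for Phlda1 the step between OSK and OSKA cells was larger than the step with 4OHT in either. Its paralog Phlda3 differed by 0.06, 0.03, 0.09 and 0.06 in the 4OHT comparison in OSK cells, that in OSKA cells, and the AKT-MER comparison without and with 4OHT.

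**Figure D2:**
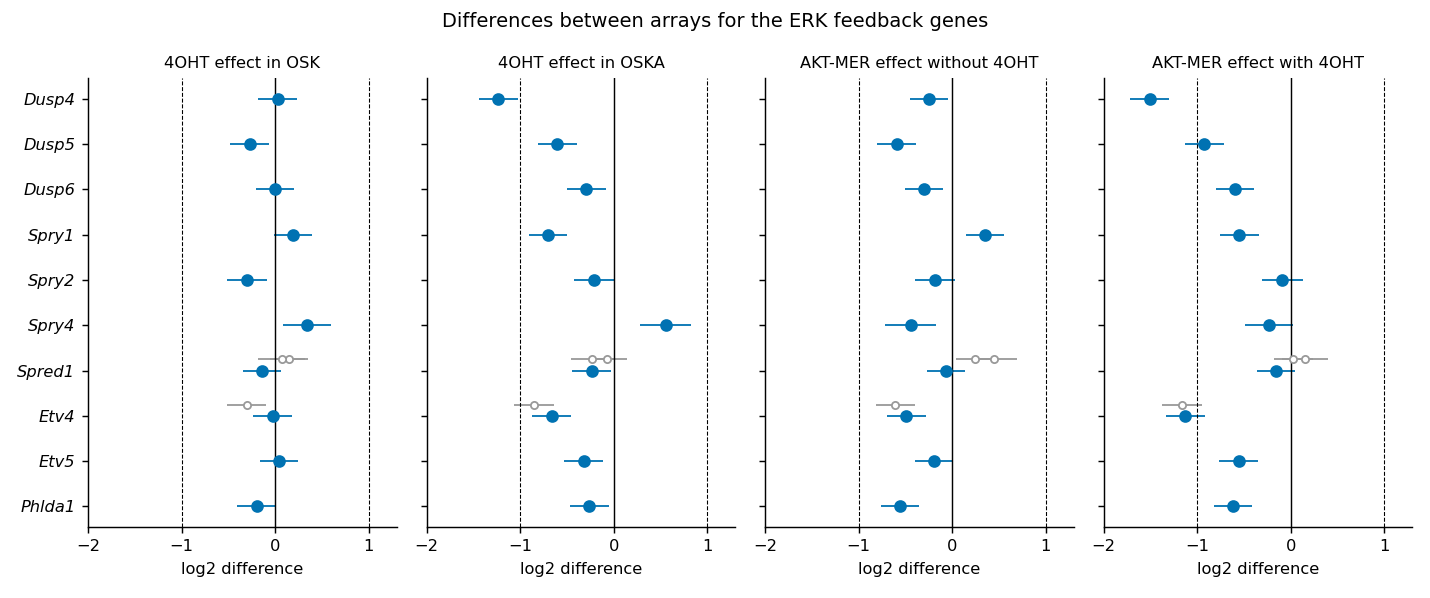
Log2 difference between arrays (horizontal axis) for each ERK feedback gene (vertical axis) in the 4 comparisons. Filled points are the brightest probe and open points the other probes, bars are the error from the scanner software, and dashed lines mark 2-fold. With 4OHT the 10 filled points of the AKT-MER comparison all lie below 0, from −1.51 for Dusp4 to −0.09 for Spry2.

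The 4OHT comparison in OSKA cells asks what activation of AKT-MER was accompanied by. In it 9 of the 10 genes were lower with 4OHT, against 54.8% of all 20300 genes measured on both arrays. The median difference of the 10 was −0.31, or 0.808-fold, and ranged from −1.24 for Dusp4 to 0.55 for Spry4. The median of all genes was −0.03 with an SD of 0.39. At least 2-fold lower was 1 member, Dusp4, against 0.901% of all genes, and no member was at least 2-fold higher. Under normexp with quantile normalization Dusp4 lay at −0.88 and no member passed 2-fold. The sign of every member was the same under all 8 alternative treatments of the data. Not all of these could turn a sign. The alternative filters on dim probes changed no member, and the series matrix changed none by more than 0.01. The mean of all probes could change only Spred1 and Etv4. In the same comparison 3 of the 4 haematopoietic markers were lower, within −0.21 to 0.08, and 4 of 6 epithelial markers were higher, up to 1.52. Of the 5 measured pluripotency markers 4 were lower, with a median of −0.24 and down to −0.73 for Tdgf1, and their summed level was lowest in the AKT-activated cells. The part of all these cells was not tested.

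OSK cells have no AKT-MER, so that 4OHT was compared there without its target fusion protein. The 10 genes divided evenly, with 5 lower and 5 higher, where 50.6% of all 19861 genes were lower. Their median was −0.01, within a range of −0.30 for Spry2 to 0.34 for Spry4. None passed 2-fold, as did 0.277% of all genes in the lower direction. All 4 haematopoietic markers were higher with 4OHT in this comparison, by 0.19 to 0.64, and their part in it was not tested. With the spike-in probes as the scale, all genes shifted by a median of −0.31 here, and 9 of the 10 lay below 0, as did 86.8% of all genes.

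These comparisons can be set side by side for each gene. The 4OHT difference was more negative in OSKA than in OSK cells for 8 of the 10 genes, against 54.3% of all genes, and the median of this difference of differences was −0.31 for the members. It was −1.26 for Dusp4, −0.90 for Spry1, −0.64 for Etv4, −0.36 for Etv5, −0.33 for Dusp5 and −0.29 for Dusp6. For Phlda1 it was −0.06 and for Spred1 −0.09, and Spry2 at 0.09 and Spry4 at 0.21 lay above 0. The software error of such a value was near 0.29 for most of the genes. This count depended on the scaling. With the spike-in probes as the scale, 5 of the 10 genes were below 0, against 22.9% of all genes, and the median of the members was 0.00. Dusp4 at −0.95, Spry1 at −0.58 and Etv4 at −0.32 then still lay below −0.29, while Dusp5 was at −0.01, Etv5 at −0.05 and Dusp6 at 0.02.

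**Figure D3:**
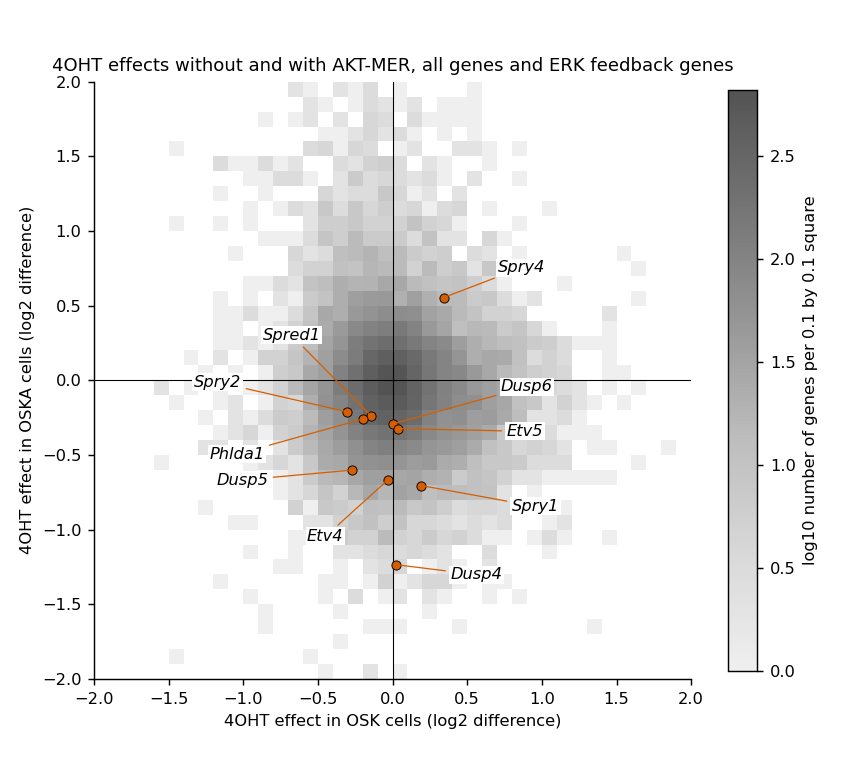
4OHT difference in OSK cells (horizontal axis, log2) against that in OSKA cells (vertical axis, log2), with the 10 ERK feedback genes as points and all genes as gray squares whose darkness is the log10 number of genes. Genes beyond 2 on either axis are not drawn. The members lie close to 0 on the horizontal axis, between −0.30 and 0.34, and 9 of them lie below 0 on the vertical axis, with Dusp4 lowest at −1.24.

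The AKT-MER comparison without 4OHT asks what the unactivated fusion protein was accompanied by. Of the 10 genes 9 were lower in OSKA cells, against 53.0% of all 20183 genes. The median was −0.27, or 0.827-fold, and Dusp5 at −0.60 and Phlda1 at −0.55 were the lowest. None reached 2-fold, which 0.931% of all genes did in the lower direction. Spry1 was the 1 member that was higher, by 0.35. With the spike-in probes as the scale, all genes shifted by a median of −0.44, the median of the members was −0.72, all 10 were below 0 as were 90.4% of all genes, and Dusp5 passed 2-fold at −1.04, as did 4.52% of all genes in the lower direction. With the mean of all probes 8 of the 10 were below 0. The haematopoietic markers were higher in OSKA cells here, by 0.24 to 0.61, and 3 of 5 measured epithelial markers were at least 2-fold lower. The OSK array without 4OHT, with the lowest summed haematopoietic level at 70.1, enters this comparison and the 4OHT comparison in OSK cells. They are therefore not separate evidence. The part of these cells was not tested.

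With 4OHT in both populations, all 10 genes were lower in OSKA cells, against 57.1% of all 19846 genes. The median was −0.57, or 0.672-fold, and the median of all genes was −0.05. Dusp4 and Etv4 were at least 2-fold lower, which makes 2 of 10 against 1.12% of all genes. The difference of Dusp5, −0.92, was next. With the spike-in probes as the scale Dusp5 was at −1.05 and 3 of the 10 passed 2-fold, against 1.69% of all genes in the lower direction. On that scale 73.2% of all genes were below 0. The AKT-activated array enters this comparison and the 4OHT comparison in OSKA cells, so they are not separate evidence. With the mean of all probes Spred1 was at 0.01 and 9 of the 10 lay below 0. Markers of other cells differed too. All 3 measured endothelial markers were lower in OSKA cells, down to −0.72, as were 3 of the 4 haematopoietic ones, down to −0.29. Epithelial markers ranged from −0.60 for Cdh1 to 1.06 for Krt18, and fibroblast markers from −0.62 for Pdgfrb to 0.82 for Col3a1. Of the 5 measured pluripotency markers 4 were lower, with a median of −0.37 and down to −0.60, and Dppa5a was higher by 0.52. The part of these cells was not tested.

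The rest of the pathway was read through 7 further lists of 102 genes, written from knowledge of the pathway, with earlier results of these data known, of which 93 were measured in the 4OHT comparison in OSKA cells. Of these, 62 were lower and 31 higher, with a median of −0.13, a share of 66.7% lower beside the 54.8% of all genes. In OSK cells the same lists gave 53 lower and 40 higher and a median of −0.07, a share of 57.0% lower beside the 50.6% of all genes. The kinase cascade itself (RAS, RAF, MEK and ERK genes and their scaffolds) had 8 of 20 lower and a median of 0.03. Among its members the RAS gene Nras was at −0.25, as it was by another probe, and a further probe gave −0.43.

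The immediate early genes, transcription factors and other products induced within minutes of growth factor stimulation, had 12 of 13 measured genes lower with 4OHT in OSKA cells, with a median of −0.42, where 54.8% of all genes were lower. The same count, 12 of 13, was lower in OSK cells, with a median of −0.23, where 50.6% of all genes were lower. Arc, a gene of synaptic plasticity that responds to serum, was at −0.70 in OSKA and −0.10 in OSK cells, and the AP-1 gene Fosl1 at −0.68 and −0.10. Without 4OHT 11 of 13 were already lower in OSKA than in OSK cells, with a median of −0.45, where 53.0% of all genes were lower. With 4OHT all 13 were lower in OSKA than in OSK cells, with a median of −0.53, as were 57.1% of all genes. At least 2-fold lower were 2 of them, as were 1.12% of all genes. These were Arc at −1.25 and the growth regulator Myc at −1.07, which is named because its value was seen. Without 4OHT Arc was at −0.65 and Myc at −0.62.

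Other feedback regulators were mixed, with 13 of 18 lower and a median of −0.09 in the 4OHT comparison in OSKA cells, where 54.8% of all genes were lower. Dusp10, a phosphatase for JNK and p38, was at 0.63, and Errfi1, an inhibitor of the EGF receptor, at −0.62. In OSK cells they were at −0.45 and −0.04. Among receptors and ligands 12 of 19 were lower, a share near that of all genes, with a median of −0.13. Hbegf, which encodes an EGF receptor ligand and is itself induced by ERK, lay at 3.35 and 3.28 in OSK cells and at 2.94 and 1.87 in OSKA cells, a 4OHT difference of −1.07 in OSKA and −0.07 in OSK cells. The receptor gene Igf1r was at −0.95 in OSKA and −0.18 in OSK cells. The pattern of Hbegf over the 4 arrays was the same in order as that of Etv4.

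In the same comparison, with 54.8% of all genes lower, 9 of 12 ETS and ternary complex factors were lower, with a median of −0.07. By their brightest probes, the PEA3 member Etv1 at −0.42 (another probe −0.13) and Elk4 at −0.34 (other probes −0.05 and 0.02) differed most. Elk1 was at −0.10 by its brightest probe and at 0.47 by its other probe. Of 10 other ERK output genes 8 were lower in the 4OHT comparison in OSKA cells, with a median of −0.23. Hmga2, a chromatin protein gene of growing fibroblasts, was at −0.90 in OSKA cells, and its other probe at −1.06, and at 0.06 in OSK cells. Vgf, a secreted neuropeptide precursor gene, went the opposite way and lay at −3.02 and −2.40 in OSK and −2.00 and −0.88 in OSKA cells, a 4OHT difference of 1.12 in OSKA and 0.62 in OSK cells.

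**Figure D4:**
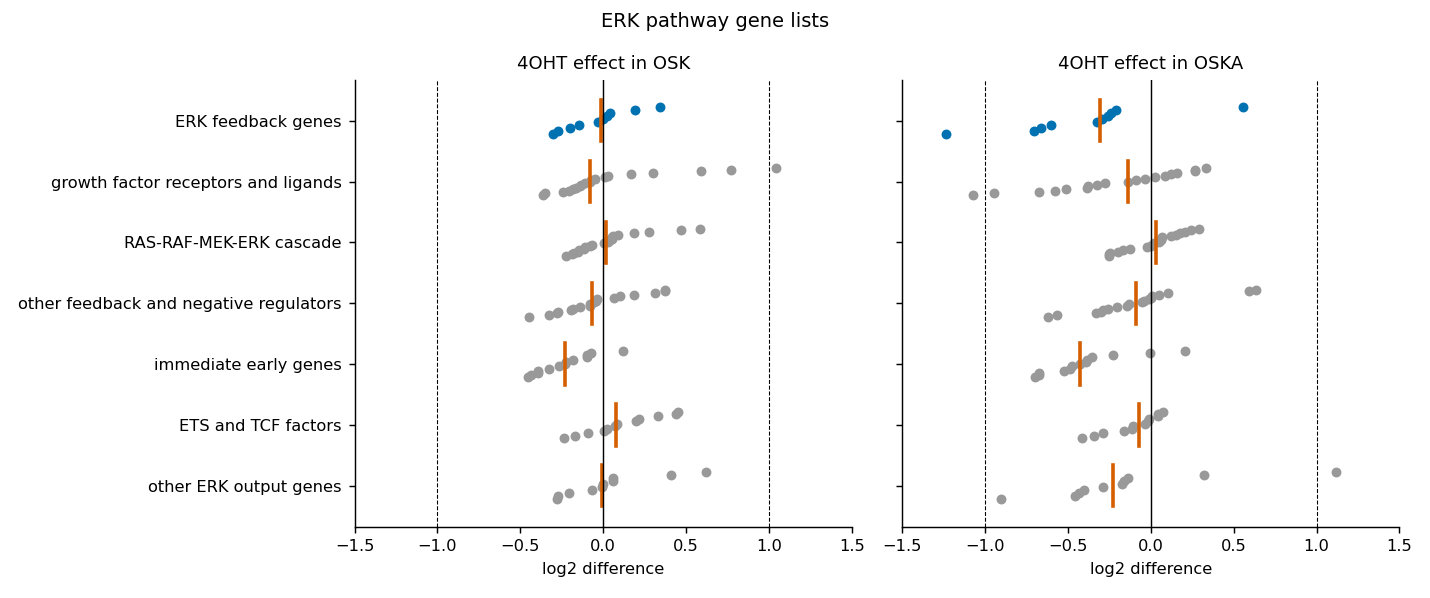
Log2 difference with 4OHT (horizontal axis) in OSK cells (left) and OSKA cells (right) for the measured genes of the ERK feedback set and of the other pathway lists (vertical axis), with 1 point per gene, a bar at the median of each list and dashed lines at 2-fold. The median of the feedback genes is −0.01 on the left and −0.31 on the right, that of the immediate early genes −0.23 and −0.42, and that of the cascade genes near 0 on both sides.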

How the data were processed

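Expression was profiled on 4 Agilent single-channel arrays, 1 per group, and the sample titles gave the groups. The deposited scanner files hold, per the file headers, a linear intensity for each spot, taken by Feature Extraction 10.7.3.1 after correction of background and spatial trend, with nothing normalized between arrays. The deposited series matrix holds the same intensity, rounded. The log2 intensity minus the 75th percentile of each array was computed in Python 3.11.15 with pandas 2.3.3 and numpy 2.4.6. Control spots and marked spots were left out. Of the 55681 probes, 27509 (49.4%) were named through RefSeq accessions, which added no probe to the 10 genes. Each gene was read by its brightest probe over the 4 arrays, and a difference was taken only where that probe was well above background on both arrays. Each feedback gene probe had 1 spot. Probe positions follow the files (NCBI37, mm9). Whether a probe lies in a coding or untranslated exon was not analysed here. Genes were counted at 2-fold, the size used in the study. The error of a difference combines the errors that the scanner software gave for the intensities, and the number of arrays limits the precision. No test was run, since each group had 1 array. Alternatives were normexp (offset 50) with quantile normalization (limma 3.58.1, R 4.3.3), quantile normalization, scaling to the median or to the spike-in probes, the mean of all probes, no filter or a stricter filter on dim probes, the series matrix, and a threshold of 1.5-fold. The counting was run on simulated arrays with a smaller spread than these data, which checks the code and not the error of the counts. The text names all 10 feedback genes, the genes with the 2 largest differences of each pathway list in the 4OHT comparison in OSKA cells, and Esr1. Myc, Elk1 and single cell type markers were named after their values were seen. The value of 1 gene chosen by this rule is not reported here. The genes and lists were chosen with earlier results of these data known.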

Additional observations from a re-analysis of the deposited data

Results flagged for a closer look

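For 4 genes the 4OHT difference lay above 0 in OSK cells and below 0 in OSKA cells, and the difference between them was not tested. All 4 values in OSK cells lay within the software error, which was near 0.20. Of all genes, 50.6% were below 0 in OSK cells and 54.8% in OSKA cells. The share of all genes with this pair of signs was not counted. Dusp4 was at 0.02 in OSK and −1.24 in OSKA cells, a difference of −1.26. Spry1 was at 0.19 and −0.70, a difference of −0.90. Etv5 was at 0.04 and −0.32, a difference of −0.36. Dusp6 was at 0.00 and −0.29, a difference of −0.29, and its value in OSK cells was so near 0 that quantile normalization, scaling to the median and the series matrix each turned its sign. Under scaling to the spike-in probes all 4 were below 0 in OSK cells as well, at −0.28 for Dusp4, −0.11 for Spry1, −0.27 for Etv5 and −0.31 for Dusp6. The difference between OSKA and OSK cells was then −0.95 for Dusp4, −0.58 for Spry1, −0.05 for Etv5 and 0.02 for Dusp6.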

How the results depend on the processing

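With 1 array per group, the variation between cultures is unknown and no count here has a test. In the 4OHT comparison in OSKA cells, the sign of each of the 10 genes was the same under all 8 alternatives of scaling, filter, probe choice and source. The filter alternatives and the series matrix left these values all but unchanged, so they say little about the signs. Normexp with quantile normalization moved 3 members, Dusp4, Dusp5 and Spry4, by up to 0.36 and left 0 past 2-fold. At a threshold of 1.5-fold, 4 members passed in that comparison (Dusp4, Dusp5, Spry1 and Etv4), 1 in the AKT-MER comparison without 4OHT and 5 in that with 4OHT, all lower, where 4.63%, 3.99% and 5.10% of all genes were at least 1.5-fold lower. Scaling to the spike-in probes gave a median of −0.32 for the 4OHT comparison in OSK cells and −0.72 for the AKT-MER comparison without 4OHT, with 1 member past 2-fold in the latter, and moved the median of all genes there by −0.31 and −0.44. It also left 5 of the 10 genes, in place of 8, with a more negative 4OHT difference in OSKA than in OSK cells. The number of all genes past 2-fold in the OSKA comparison was 591, against 202 under normexp, 3336 without a filter on dim probes and 1968 at 1.5-fold. In OSK cells the corresponding counts were 176, 30, 2477 and 1182. They were 407, 74, 2992 and 1948 for AKT-MER without 4OHT, where the spike-in probes gave 954, and 603, 242, 3146 and 2097 for AKT-MER with 4OHT. The cause of these shifts was not tested. No paired analysis was run, since each group had 1 array. Dusp5, Spry2 and Spry4 are in the dimmest tertile, where differences of all genes spread more widely.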
